A study of Rattus norvegicus with 8 samples.

Results

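The growth hormone and insulin-like growth factor (IGF) system of the rat growth plate was followed through 9 genes: the ligands Igf1 and Igf2, the receptors Igf1r and Ghr, and the binding proteins Igfbp2, Igfbp3, Igfbp4, Igfbp5 and Igfbp6. The members are all probe sets that the platform annotation assigns to exactly 1 of these genes, which gave 22 of the 31042 probe sets analysed. Igfbp5 had 5 probe sets, Igf2 had 4, Igf1 had 3, and Igf1r, Ghr, Igfbp3 and Igfbp6 had 2 each, while Igfbp2 and Igfbp4 had 1. No filter on low values was applied, so all 22 were tested. The tissue was growth plate cartilage from the femur of Rattus norvegicus, split into a perichondral, a reserve, a proliferative and a hypertrophic zone. Every zone has 1 array from rats aged 46 days and 1 from rats aged 42 days, and each array received RNA pooled from 3 rats. The labels name no strain, sex, genotype or treatment, and the way in which the zones were taken apart was not stated in what was used here. The series counts the ages as replicates, so a zone has n = 2 arrays and its spread also holds any difference between the ages.

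Growth hormone from the pituitary binds its receptor Ghr, which signals through the kinase Jak2 and the transcription factor Stat5b and raises Igf1 transcription in liver and in other tissues. Igf1 and Igf2 act through the receptor tyrosine kinase Igf1r, and binding proteins of the Igfbp family hold the ligands in blood and matrix and control how much of them reaches the receptor. In the growth plate the system is known for driving the division and enlargement of chondrocytes, and Igf2, an imprinted gene, is best known for its role in growth before birth.

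None of the 22 probe sets differed between zones or ages past the threshold, an adjusted p below 0.05 with limma over all probe sets. In the test of any zone difference 0 of 22 passed (percent called among all probe sets 0.0387), and 1 had an unadjusted p under 0.05, against 6.2% of all probe sets. On this scale the widest zone differences were those of Igf2, but its 4 probe sets placed them between different zones. The probe sets of Igf1 and Igf1r were each above the median of all probe sets, 8.25 on the log2 scale, in 7 or 8 of the 8 arrays. Values are normalized log2(intensity + 16), differences and their 95% intervals are on the same scale, and array values are given at 46 and then 42 days.

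The arrays share one scale, with trimmed mean intensities of 500.1 to 500.2 and median deposited intensities from 226.6 to 348.9. The cartilage collagen Col2a1 averaged between 16.50 (hypertrophic) and 17.69 (perichondral) in the 4 zones. Col10a1, the collagen of hypertrophic chondrocytes, averaged 16.10 in hypertrophic arrays against 13.72 in perichondral, 11.33 in reserve and 11.78 in proliferative arrays. The list of hypertrophic chondrocyte markers (9 of 10 genes measured, Col10a1 included) did not follow it throughout. Hypertrophic minus reserve was positive in 5 and negative in 4, and hypertrophic minus proliferative positive in 6 and negative in 3. Perichondral minus hypertrophic was negative in 8 and positive in 1. The list's summed deposited intensities were 46950 and 267300 in hypertrophic and 52870 and 77050 in reserve arrays. The signal Ihh, another gene of late chondrocytes, had a zone mean of at most 8.01, which lay below 9.58, the level under which 95% of the values of 33 genes typical of other organs fell. Of the member probe sets, 1 was above that other-organ level in all 8 arrays, 5 in some arrays and 16 in none, so most of the members lay at levels also read for genes of other organs. Signal at the 3' end of Gapdh over that at its 5' end, which is used as a sign of RNA quality, ran from 3.63 to 8.15 over the arrays. The same ratio for Actb ran from 0.557 to 4.65, with the arrays in another order. The RNA was also amplified, and the part of amplification in these ratios was not tested. In pooled tissue, fewer cells of a type and less RNA per cell cannot be told apart.

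The RefSeq promoter table (build GRCr8), which spans 250 bases before to 50 bases after a gene's start, held 10 windows for the 9 genes, with 2 separate starts for Igf2. These windows are shown for Igf2, the member on which the widest differences rest, and for Igf1, the ligand that growth hormone controls. The Igf2 windows lie on the minus strand at chr1:207250426-207250725 and chr1:207253931-207254230, and the Igf1 window lies on the plus strand at chr7:24172282-24172581. Capitals mark GGGCGG, read on either strand.
Igf2 at 207250426: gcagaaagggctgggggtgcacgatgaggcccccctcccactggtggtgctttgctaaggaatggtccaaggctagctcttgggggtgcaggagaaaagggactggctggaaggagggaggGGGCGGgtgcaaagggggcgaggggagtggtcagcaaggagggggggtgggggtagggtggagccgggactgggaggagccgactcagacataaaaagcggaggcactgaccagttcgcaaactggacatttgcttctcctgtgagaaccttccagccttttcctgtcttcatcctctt
Igf2 at 207253931: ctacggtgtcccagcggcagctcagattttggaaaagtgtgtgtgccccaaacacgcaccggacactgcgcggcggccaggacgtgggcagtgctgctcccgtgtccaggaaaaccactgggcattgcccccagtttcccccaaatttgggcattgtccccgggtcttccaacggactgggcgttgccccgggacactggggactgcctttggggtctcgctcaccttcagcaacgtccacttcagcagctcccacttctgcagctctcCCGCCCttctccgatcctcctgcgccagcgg
Igf1: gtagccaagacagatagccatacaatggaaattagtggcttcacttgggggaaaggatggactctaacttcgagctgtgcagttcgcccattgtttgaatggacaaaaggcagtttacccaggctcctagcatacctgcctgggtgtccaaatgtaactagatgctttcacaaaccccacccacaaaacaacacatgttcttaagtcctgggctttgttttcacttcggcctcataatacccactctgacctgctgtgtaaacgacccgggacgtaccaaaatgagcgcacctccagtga
Both strands were searched for TATAAA, the letters of a TATA box, for GGGCGG, those of a GC box, and for TTCNNNGAA, the core that STAT5 proteins are known to bind. No match overlapped another in these windows. GGGCGG stood in 4 of the 10 windows, against 33.1% of all 33469 windows of this length, and was found once in each Igf2 window, at position -129 and, on the other strand, at position 19, counted from 0 at the start. TATAAA stood in 1 of 10, that of Igfbp4, against 14.2% of all windows. TTCNNNGAA stood in 0 of 10, against 8.87% of all windows. The array values do not tell from which Igf2 start a transcript came.

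Igf1, the ligand that mediates much of the action of growth hormone on bone growth, had zone means that spanned 0.56, 0.33 and 1.15 in its 3 probe sets, in each case less than the widest gap between the arrays of 1 zone. The probe set with the highest mean, 1370333_a_at, was at 10.17 and 9.87 in perichondral arrays, 10.76 and 9.06 in reserve arrays, 9.41 and 10.17 in proliferative arrays and 10.06 and 10.63 in hypertrophic arrays. The arrays of every zone overlapped those of the other zones, and the gap between the reserve arrays, 1.70, was wider than the span of the zone means. Its widest zone difference was hypertrophic minus proliferative, 0.56 (SE 0.67, 95% interval -0.85 to 1.96, adjusted p = 0.956). Hypertrophic arrays averaged 10.34 ± 0.40 and proliferative arrays 9.79 ± 0.53 (SD, n = 2 each). The probe set 1382599_at ran from 8.54 to 9.57 over the 8 arrays with no zone apart from the others. The probe set 1388469_at had its lowest zone mean in hypertrophic arrays, at 8.43 and 7.16, against 9.11 and 8.77 in reserve arrays. These arrays did not overlap, and the difference was -1.15 (SE 0.86, 95% interval -2.95 to 0.66, adjusted p = 0.764). The 3 probe sets gave the same sign in 2 of the 6 zone comparisons, so the order of the zones for Igf1 depended on the probe set read.

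Igf2, the other ligand, showed the widest zone differences of the system on this scale, and no comparison in which its 4 probe sets all had the same sign. The probe set 1388252_at was at 7.85 and 7.81 in perichondral arrays, 4.79 and 4.74 in reserve arrays, 8.78 and 8.73 in proliferative arrays and 8.60 and 6.91 in hypertrophic arrays. Both reserve arrays lay below all other arrays, with deposited intensities of 10.6 and 6.65 there against 498 and 388 in proliferative arrays. Proliferative arrays averaged 8.75 ± 0.04 and reserve arrays 4.77 ± 0.04 (SD, n = 2 each), a difference of 3.99 (SE 1.14, 95% interval 1.59 to 6.39, adjusted p = 0.426). This was the lowest adjusted p of the 22 probe sets in the zone comparisons, and none of the 7 probe sets called in that comparison was higher in proliferative arrays. The reserve intensities lie below the pseudocount of 16, which therefore sets the size of the difference: it was 5.11 with a pseudocount of 1 and 2.67 with 64. The probe set was above the other-organ level in 0 of 8 arrays. The same probe set differed by 3.07 (SE 1.14, 95% interval 0.67 to 5.46, adjusted p = 1) between perichondral and reserve arrays. Between hypertrophic and reserve arrays it differed by 2.98 (SE 1.14, 95% interval 0.59 to 5.38, adjusted p = 0.542). In both comparisons the arrays did not overlap.

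In no other Igf2 probe set were both reserve arrays the lowest of the 8. The probe set 1398322_at was at 8.50 and 7.81 in perichondral arrays, 7.23 and 7.07 in reserve arrays, 7.50 and 8.54 in proliferative arrays and 5.51 and 5.66 in hypertrophic arrays. Both hypertrophic arrays were the lowest of the 8, and the perichondral minus hypertrophic difference was 2.57 (SE 1.12, 95% interval 0.20 to 4.94, adjusted p = 0.786). Hypertrophic minus proliferative was -2.43 (SE 1.12, 95% interval -4.80 to -0.06, adjusted p = 0.897). All 10 cartilage markers measured (of 12 listed) were lower in hypertrophic arrays too, with median differences of 1.20 for perichondral minus hypertrophic and -1.22 for hypertrophic minus proliferative, and summed intensities of 86740 and 426100 in hypertrophic arrays against 283100 to 751900 in the other 6. Their part in these values was not tested. The probe set 1367571_a_at was at 8.48 and 10.08 in perichondral arrays, 4.95 and 8.70 in reserve arrays, 6.02 and 5.003 in proliferative arrays and 6.24 and 5.76 in hypertrophic arrays. Its values were high in both perichondral arrays and in the 42-day reserve array only, and the gap between the reserve arrays, 3.75, was almost as wide as that between the highest and lowest zone means, 3.76. Perichondral minus proliferative was 3.76 (SE 1.33, 95% interval 0.96 to 6.57, adjusted p = 0.963). Perichondral minus hypertrophic was 3.28 (SE 1.33, 95% interval 0.48 to 6.08, adjusted p = 0.762). Markers of fibrous tissue and perichondrium (12 of 12 measured) had a positive perichondral minus proliferative difference in 11 of 12 genes (median 2.63) and a positive perichondral minus hypertrophic one in 9 of 12 (median 1.07). Their summed intensities were 67900 and 179300 in perichondral, 147200 and 168000 in reserve, 7598 and 21960 in proliferative and 11630 and 247600 in hypertrophic arrays, and their part was not tested. The last probe set, 1371206_a_at, was lowest in proliferative arrays at 5.996 and 5.82, and its highest value, 8.48, was that of the 46-day hypertrophic array. Across the 4 probe sets the highest zone was named as 3 different zones and the lowest as 3, although the annotation gives 3 of them the same source sequence. Deposited intensities of Igf2 lay between 6.65 and 1069, and 1 array value of the 4 probe sets together lay above the other-organ level.

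Summed intensities of marker lists for marrow, blood, osteoclasts and vessels were high in the same reserve arrays in which 1388252_at was low. The summed deposited intensity of the leukocyte and marrow list (11 of 12 genes measured) was 42460 and 47960 in reserve arrays, and ran from 1427 to 23670 in the other 6 arrays. That of the erythroid list (6 of 9 genes) was 39240 and 12950 in reserve arrays and 1872 to 11350 in the others. The osteoclast list (6 of 8 genes) summed to 12210 and 23610 in reserve arrays and 757 to 7596 in the others. The endothelial list (8 of 9 genes) summed to 8510 and 6981 in reserve arrays and 2507 to 3828 in the others. Such sums are weighted to the brightest genes of a list. By gene, proliferative minus reserve was negative in 11 of 11 leukocyte and marrow genes and 6 of 6 osteoclast genes. It was negative in 5 and positive in 1 of the erythroid genes, and negative in 5 and positive in 3 of the endothelial genes. The osteoblast and bone list (6 of 8 genes) summed to 42800 and 54980 in reserve arrays, but was highest in the 42-day hypertrophic array, at 78010, and ran from 2903 to 27980 in the other 5. No marker was at 0, since the lowest value in the table is 1.39. The Gapdh 3' to 5' ratio was 3.96 and 8.15 in reserve arrays, against 5.39 and 7.10 in proliferative, 3.78 and 4.47 in perichondral and 3.63 and 4.30 in hypertrophic arrays. That of Actb was 2.32 and 4.65 in reserve, 4.56 and 1.85 in proliferative, 0.557 and 1.64 in perichondral and 4.59 and 1.71 in hypertrophic arrays. The part of these differences in the Igf2 values was not tested.

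**Figure D1:**
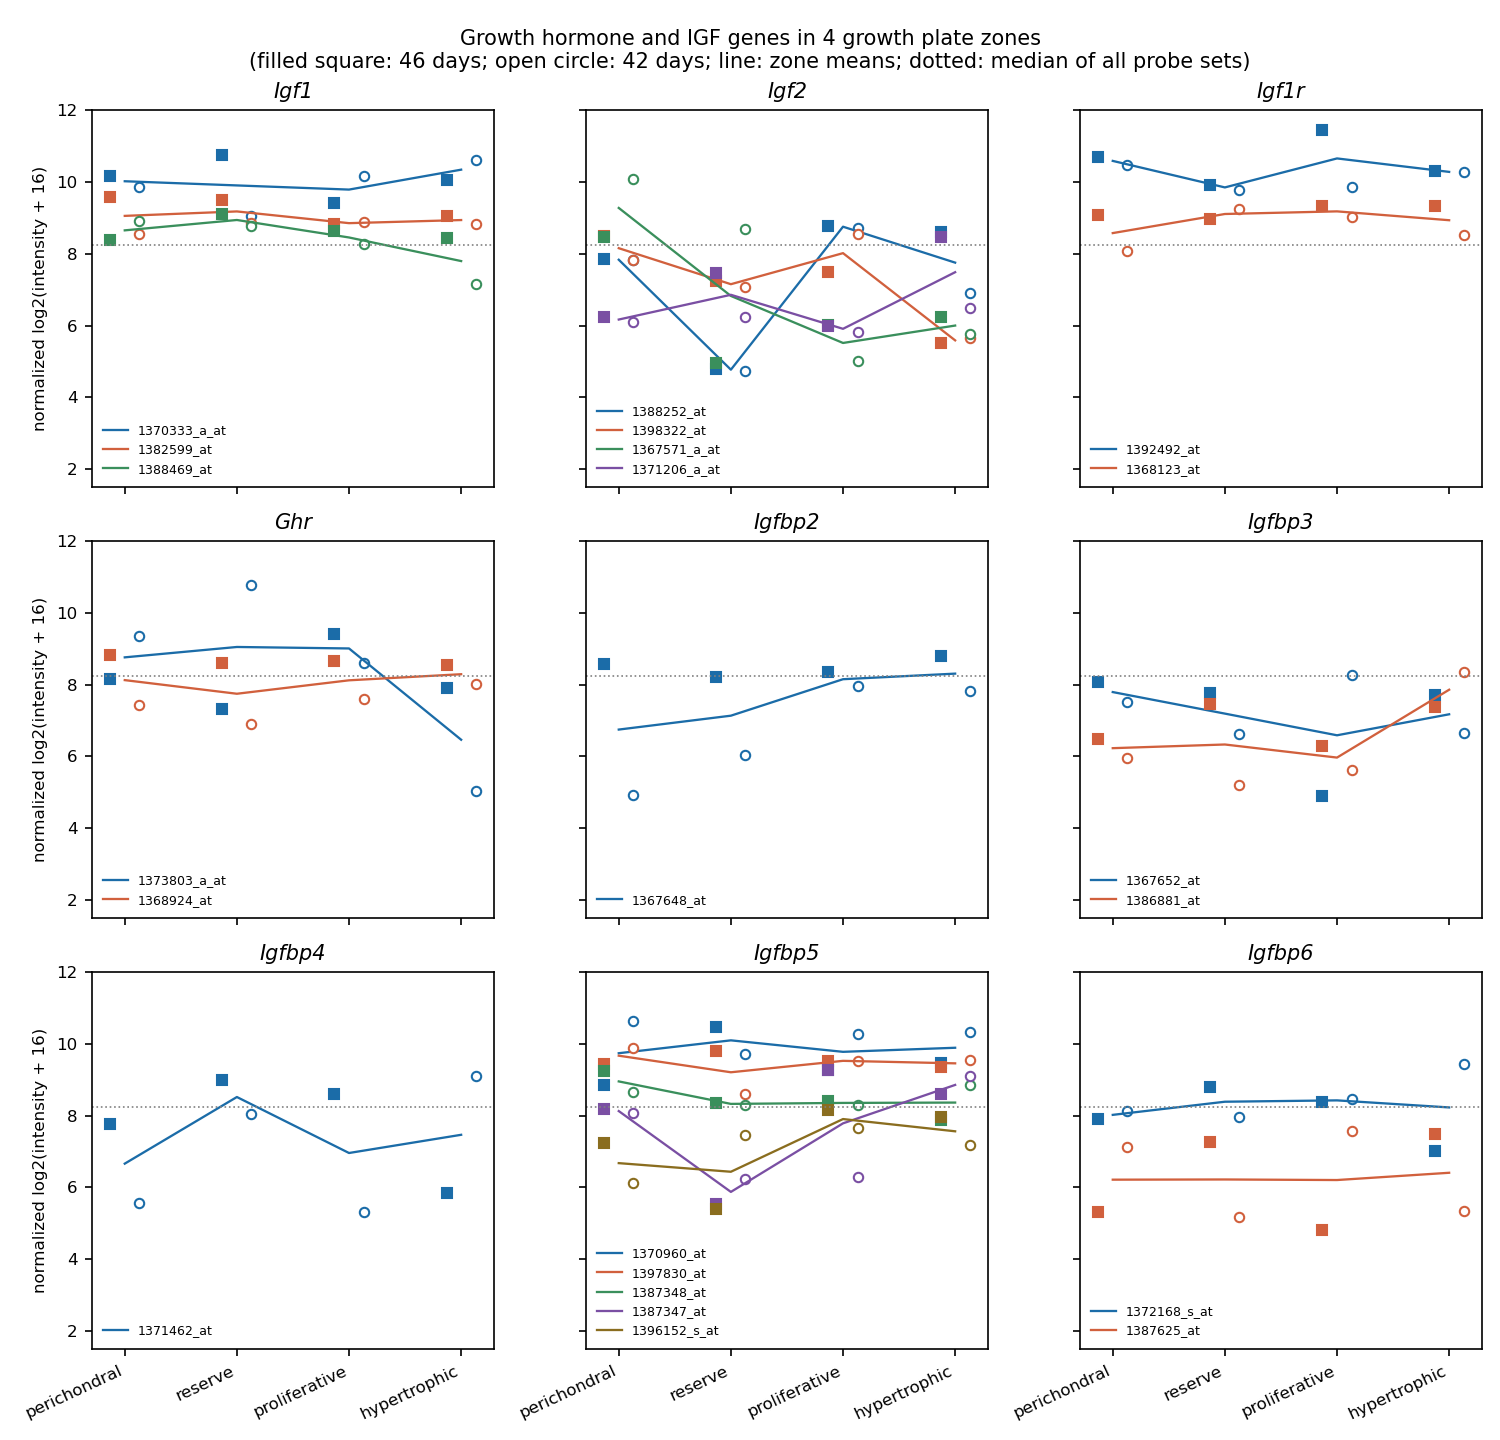
Normalized log2(intensity + 16) of the 22 probe sets, 1 panel per gene, in the 4 zones on the horizontal axis. Filled squares are 46-day and open circles 42-day arrays, lines join the zone means, and the dotted line is the median of all probe sets, 8.25. The probe sets of Igf2 and Igfbp5 cross each other between zones, and the 2 arrays of a zone often lie further apart than the zone means. Levels of different probe sets are not comparable.

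Igf1r, the receptor tyrosine kinase that binds both ligands, was the one gene with a probe set above the other-organ level in all 8 arrays. Its probe set 1392492_at was at 10.69 and 10.49 in perichondral arrays, 9.92 and 9.78 in reserve arrays, 11.44 and 9.87 in proliferative arrays and 10.30 and 10.27 in hypertrophic arrays. The highest value, in the 46-day proliferative array, stood apart from the 42-day array of that zone by 1.57. Its widest zone difference was proliferative minus reserve, 0.81 (SE 0.61, 95% interval -0.49 to 2.11, adjusted p = 0.783). This rested on 1 array, since without the 46-day proliferative array it was 0.02. The probe set 1368123_at ran from 8.06, in the 42-day perichondral array, to 9.34, in the 46-day hypertrophic array. Both probe sets had their highest zone mean in proliferative arrays and gave the same sign in 3 of the 6 zone comparisons.

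Ghr, the growth hormone receptor, gave opposite zone orders in its 2 probe sets. The probe set 1373803_a_at was at 8.17 and 9.36 in perichondral arrays, 7.31 and 10.79 in reserve arrays, 9.42 and 8.60 in proliferative arrays and 7.90 and 5.03 in hypertrophic arrays. The 42-day hypertrophic array was the lowest and the 42-day reserve array the highest, while the 46-day arrays of these zones were at similar values. Hypertrophic minus reserve was -2.59 (SE 1.18, 95% interval -5.09 to -0.08, adjusted p = 0.606), although the arrays overlapped. Leaving out the 42-day reserve array gave -0.85, and leaving out the 46-day one gave -4.32. Hypertrophic minus proliferative was -2.54 (SE 1.18, 95% interval -5.05 to -0.04, adjusted p = 0.897), and was -1.11 without the 42-day hypertrophic array. The probe set 1368924_at was at 8.82 and 7.44 in perichondral arrays, 8.60 and 6.89 in reserve arrays, 8.65 and 7.59 in proliferative arrays and 8.55 and 8.03 in hypertrophic arrays. Here the 46-day array was higher in every zone, and the zone means spanned 0.54. The 2 probe sets had opposite signs in all 6 zone comparisons, although the smallest of these differences, 0.01 for perichondral minus proliferative in 1368924_at, turned to -0.07 with the values as deposited.

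Among the binding proteins, Igfbp5, which cartilage and bone matrix are known to hold, had 5 probe sets with 4 different highest zones. The probe set with the highest mean, 1370960_at, was at 8.84 and 10.63 in perichondral arrays, 10.48 and 9.72 in reserve arrays, 9.28 and 10.28 in proliferative arrays and 9.46 and 10.32 in hypertrophic arrays. The arrays of all zones overlapped, and the zone means spanned 0.36. The zone means of 1397830_at spanned 0.46 and those of 1387348_at 0.63, and both had their highest zone mean in perichondral and their lowest in reserve arrays. The probe set 1387347_at was at 8.18 and 8.07 in perichondral arrays, 5.52 and 6.22 in reserve arrays, 9.27 and 6.30 in proliferative arrays and 8.61 and 9.10 in hypertrophic arrays. Both reserve arrays were low, as was the 42-day proliferative array, and both hypertrophic arrays lay above both reserve arrays. Hypertrophic minus reserve was 2.98 (SE 1.16, 95% interval 0.53 to 5.44, adjusted p = 0.55). Perichondral minus reserve, where the arrays did not overlap either, was 2.25 (SE 1.16, 95% interval -0.20 to 4.71, adjusted p = 1). The sums of marrow, erythroid and osteoclast markers given for Igf2 were high in these reserve arrays too, and their part was not tested. The last probe set, 1396152_s_at, had its highest zone mean in proliferative arrays, at 7.90 ± 0.34, against 6.43 ± 1.46 in reserve arrays (SD, n = 2 each). Its name carries the suffix that marks probes able to match several transcripts, as does that of 1372168_s_at of Igfbp6, so these values are uncertain. The 5 probe sets never had the same sign in 1 zone comparison, and 2 of them share a source sequence.

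Igfbp2, Igfbp3, Igfbp4 and Igfbp6 lay mostly below the median of all probe sets, and their arrays differed more within zones than between them. Igfbp2, a carrier of both ligands, was at 8.58 and 4.92 in perichondral arrays, 8.22 and 6.05 in reserve arrays, 8.34 and 7.96 in proliferative arrays and 8.80 and 7.82 in hypertrophic arrays. The 42-day perichondral and reserve arrays were the lowest, and the widest zone difference, perichondral minus hypertrophic, was -1.56 (SE 1.29, 95% interval -4.29 to 1.17, adjusted p = 0.892). It turned to 0.27 without the 42-day perichondral array. Igfbp3, the main carrier of IGFs in blood, was at 8.08 and 7.51 in perichondral arrays, 7.77 and 6.62 in reserve arrays, 4.90 and 8.28 in proliferative arrays and 7.70 and 6.65 in hypertrophic arrays in 1367652_at. The 46-day proliferative array was far below the other 7, and the perichondral minus proliferative difference, 1.21 (SE 1.28, 95% interval -1.51 to 3.92, adjusted p = 0.967), turned to -0.48 without it. In the other Igfbp3 probe set, 1386881_at, both hypertrophic arrays, 7.37 and 8.35, were above both proliferative arrays, 6.30 and 5.63, a difference of 1.89 (SE 1.16, 95% interval -0.56 to 4.34, adjusted p = 0.927).

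Igfbp4, which is known to inhibit IGF action and is cut by the protease Pappa, was at 7.76 and 5.57 in perichondral arrays, 8.98 and 8.05 in reserve arrays, 8.59 and 5.32 in proliferative arrays and 5.84 and 9.09 in hypertrophic arrays. In perichondral and proliferative zones the 42-day array was low and in the hypertrophic zone the 46-day array. Its widest difference, perichondral minus reserve, was -1.86 (SE 1.41, 95% interval -4.83 to 1.12, adjusted p = 1), with arrays that did not overlap. It ran from -2.96 to -0.76 with each array left out. For Igfbp6, which is known to bind Igf2 over Igf1, the zone means of 1372168_s_at spanned 0.40 and those of 1387625_at 0.20. Within a single zone the arrays of these probe sets differed by up to 2.42 and 2.76.

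Over the 6 zone comparisons the 22 probe sets gave 132 tests, with adjusted p from 0.426 to 1. Between perichondral and reserve arrays 0 passed (percent called among all probe sets 0) and 1 had an unadjusted p under 0.05 (4.55% of members, against 3.75% of all). Between perichondral and proliferative arrays 0 passed (percent called 0) and 1 had an unadjusted p under 0.05, against 5% of all probe sets. Between perichondral and hypertrophic arrays 0 passed (percent called 0.029) and 2 were under 0.05 unadjusted (9.09%, against 6.17%). These shares lie near the background.

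Between proliferative and reserve arrays 0 of 22 passed (percent called 0.0226) and 1 had an unadjusted p under 0.05, against 7.64% of all probe sets. Between hypertrophic and reserve arrays 0 passed (percent called 0.0226) and 3 were under 0.05 unadjusted (13.6%, against 8.1%). Between hypertrophic and proliferative arrays 0 passed (percent called 0.0129) and 2 were under 0.05 unadjusted (9.09%, against 5.52%). Of the 10 tests with an unadjusted p under 0.05, 7 were of Igf2, 2 of Ghr 1373803_a_at and 1 of Igfbp5 1387347_at.

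The arrays of the zones compared did not overlap in 35 of the 132 tests of members. By comparison these were 6 of 22 between perichondral and reserve (percent called 34.7), 6 between perichondral and proliferative (34.2), 7 between perichondral and hypertrophic (34.9), 6 between proliferative and reserve (39.7), 5 between hypertrophic and reserve (38.9) and 5 between hypertrophic and proliferative arrays (31.4). Members without overlap were thus no more frequent than probe sets at large in any comparison. The median difference of the members ran from -0.16 (perichondral minus hypertrophic) to 0.11 (hypertrophic minus reserve), beside -0.03 and 0.06 over all probe sets.

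**Figure D2:**
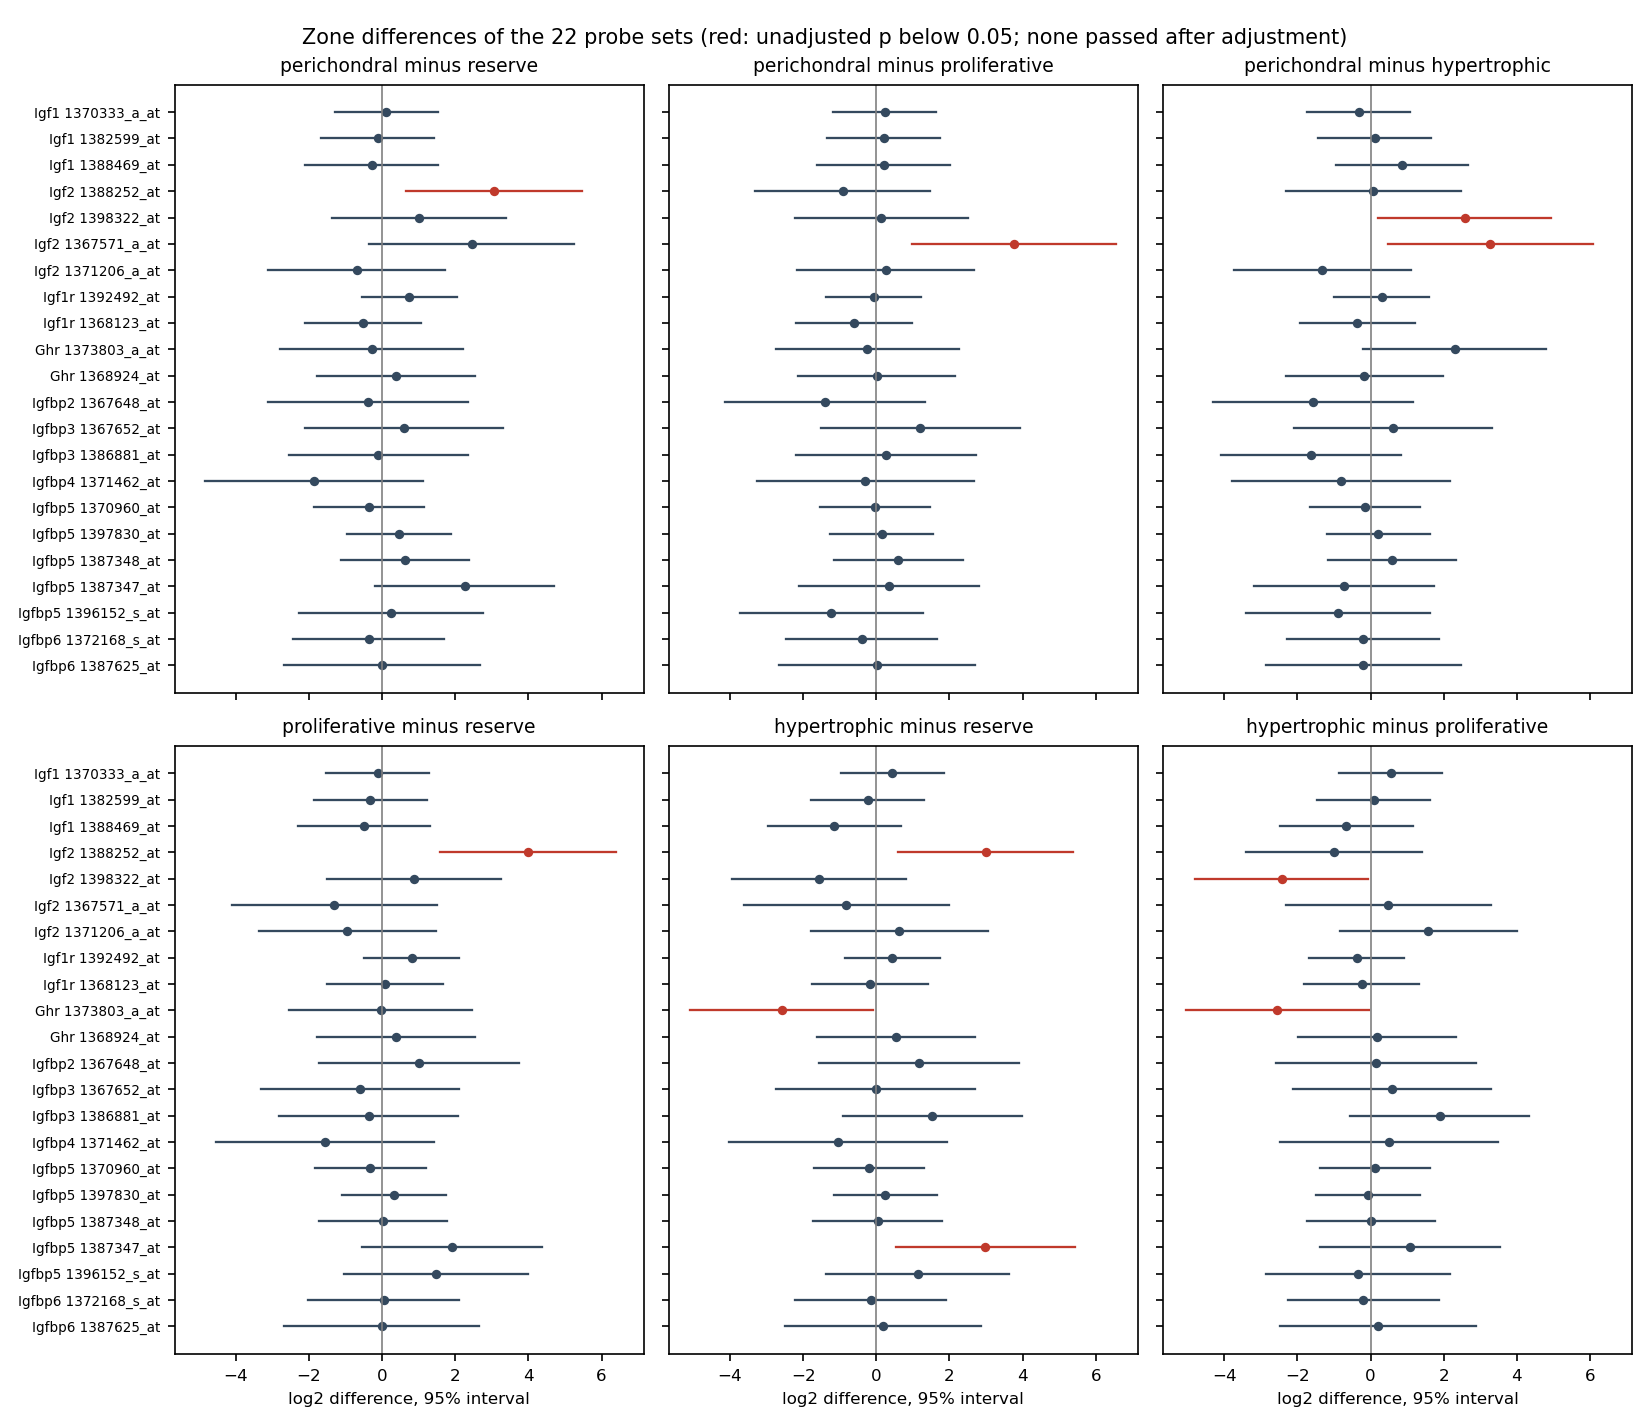
Log2 differences between zones with 95% intervals from limma, 1 row per probe set and 1 panel per comparison, the zone named first being on top of the difference. Red marks an unadjusted p below 0.05, and none of the 132 differences passed after adjustment. Of the 10 red intervals, 7 belong to Igf2.

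The spread within zones set the limit of these comparisons. In 18 of the 22 probe sets the arrays of at least 1 zone differed by more than the highest and lowest zone means did, against 72.5% of all probe sets. The exceptions were 1388252_at, 1398322_at and 1367571_a_at of Igf2 and 1387347_at of Igfbp5, the last 2 by narrow margins, 3.76 against 3.75 and 2.98 against 2.97. The median span of zone means was 1.18 for the members and 1.502 for all probe sets, and the median of the widest gap within a zone was 1.89 and 2.15.

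**Figure D3:**
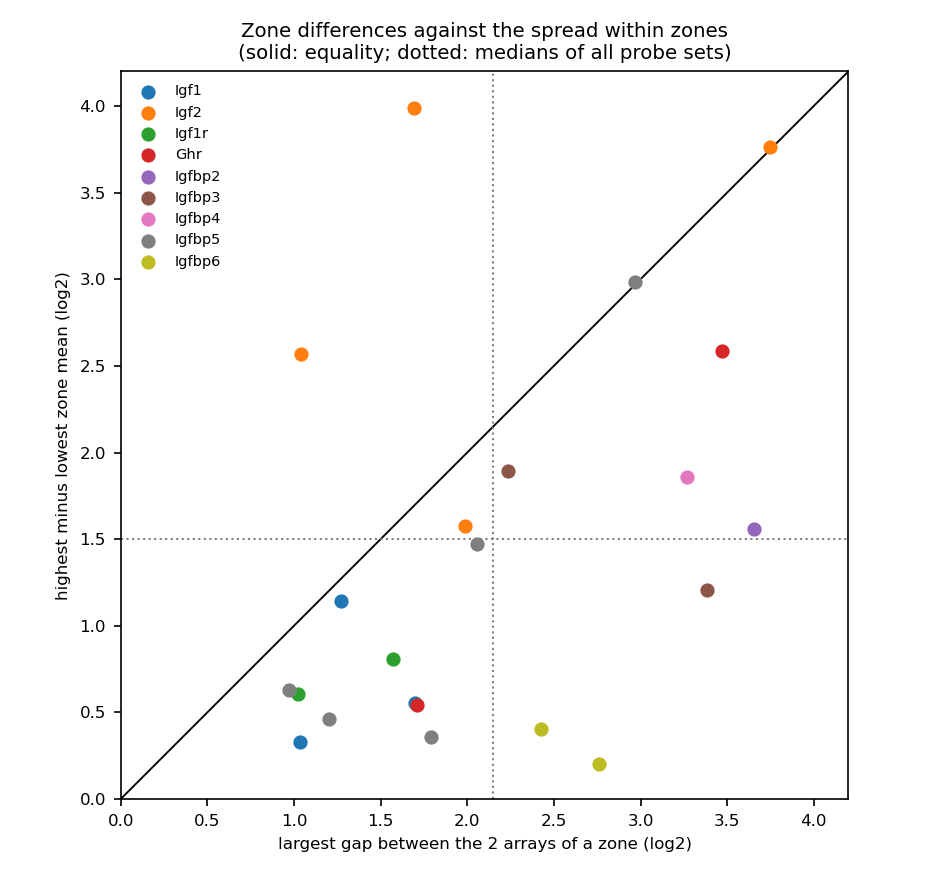
Highest minus lowest zone mean of each member probe set (vertical axis, log2) against the widest gap between the 2 arrays of any zone (horizontal axis, log2), coloured by gene. Points above the solid line of equality, 4 of 22, have zone means further apart than any arrays of 1 zone. Dotted lines are the medians of all probe sets, 2.15 and 1.502.

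Between 46 and 42 days, with zone as a covariate, 0 of 22 probe sets passed (percent called 0) and 1 had an unadjusted p under 0.05, against 8.43% of all probe sets. That 1 was Igfbp2, which averaged 8.48 ± 0.26 at 46 days and 6.69 ± 1.46 at 42 days (SD, n = 4 arrays of different zones). The difference was 1.79 (SE 0.82, adjusted p = 0.578). By zone it was 3.66 (perichondral), 2.16 (reserve), 0.38 (proliferative) and 0.98 (hypertrophic). It was 1.17 without either perichondral array. Ghr 1368924_at was also higher at 46 days in all 4 zones, by 1.17 (SE 0.69, adjusted p = 0.678). The other Ghr probe set differed by -0.25 (SE 0.83, adjusted p = 0.966), with the 46-day array lower in perichondral and reserve zones. Higher in all 4 zones at 46 days were 5 of 22 probe sets (percent called 8.58), namely these of Igfbp2 and Ghr, 1388252_at and 1371206_a_at of Igf2 and 1392492_at of Igf1r. Lower in all 4 zones were 0 of 22 (percent called 7.73). Tissue markers also differed between the arrays of the 2 ages, with 10 of 10 cartilage genes (median difference -0.99), 11 of 11 leukocyte and marrow genes (-0.84) and 9 of 12 fibrous tissue genes (-1.10) lower at 46 days. Of these, 6, 3 and 5 had an unadjusted p under 0.05 and 0 passed after adjustment, and their part in the members' age differences was not tested. The cartilage sum was lower at 46 days in every zone. The leukocyte and marrow sum was 1902 and 23670 in hypertrophic arrays, but 42460 and 47960 in reserve and 2239 and 1903 in proliferative arrays. The fibrous tissue sum was 11630 and 247600 in hypertrophic, but 147200 and 168000 in reserve arrays. With 1 array per zone and age, an age difference within a zone has no test.

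**Figure D4:**
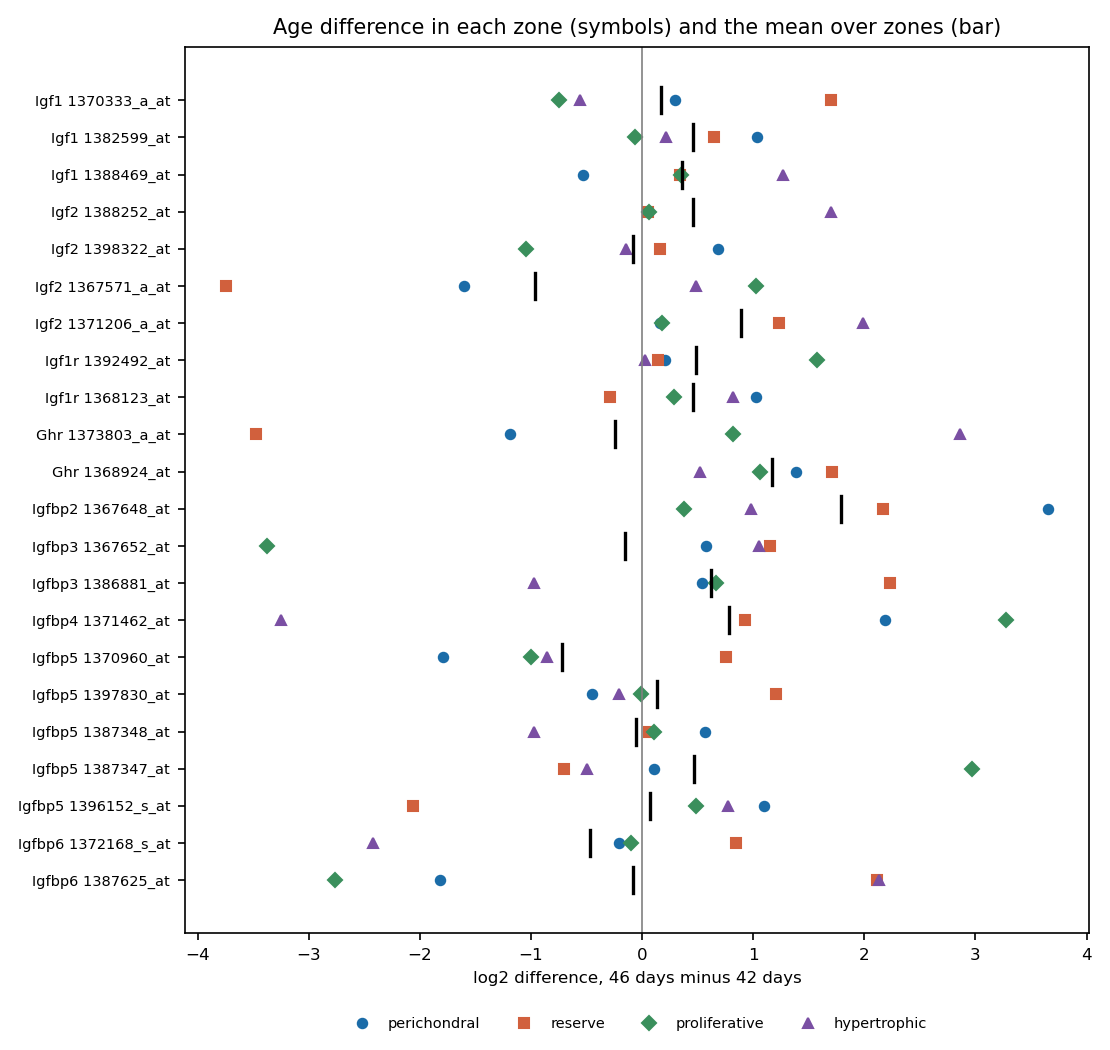
Log2 difference between the 46-day and the 42-day array in each zone (symbols) and its mean over the zones (black bar), 1 row per probe set. The bar of Igfbp2 lies furthest from 0, at 1.79, and in 17 of 22 probe sets the zones fall on both sides of 0.

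Around the members, 45 of 49 listed genes of the pathway had a probe set with 1 gene name, and 0 of their 270 zone tests passed. Of these tests 26 had an unadjusted p under 0.05, 9.63% against 6.03% of all tests, and the lowest adjusted p was 0.491. That was Igfbp7, an IGFBP-related protein of blood vessels and matrix, at 10.07 ± 0.30 in hypertrophic arrays and 11.85 ± 0.78 in reserve arrays (SD, n = 2 each). In the list of other family members (7 of 7 genes measured, 0 called in either direction in all 6 comparisons), the median hypertrophic minus reserve difference was 1.42, beside -0.07 over all genes and 0.58 over the 33 other-organ genes, of which 22 were positive. For that difference 5 of the 7 genes were positive and 4 had an unadjusted p under 0.05, against 8.1% of all probe sets. In all 8 arrays 4 of the 7 genes were below the other-organ level. The named members pointed both ways. The insulin receptor relative Insrr was at 8.64 ± 0.48 in hypertrophic and 5.94 ± 0.84 in reserve arrays. Igfbpl1, an IGFBP-like protein, was at 9.17 ± 0.23 in hypertrophic and 6.58 ± 1.85 in reserve arrays. Igfals, which holds IGF and its carrier together in blood, was at 5.59 ± 0.17 in perichondral and 8.60 ± 0.17 in proliferative arrays, and for this pair the adjusted p was 0.963.

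Growth hormone receptor signalling (10 of 10 genes measured) also had 0 genes called in either direction. Its widest median difference was -0.82, for proliferative minus reserve, beside -0.06 over all genes. There 6 of 10 genes were negative and 3 had an unadjusted p under 0.05. The median perichondral minus hypertrophic difference was -0.56, with 9 of 10 genes negative. Beside it stood 0.02 over all genes and -0.33 over the 33 other-organ genes, of which 23 were negative. In all 8 arrays 7 of the 10 genes were below the other-organ level. Ptpn6, a phosphatase of blood cells, was at 6.51 ± 0.61 in proliferative and 9.16 ± 0.0049 in reserve arrays. Socs1, a feedback inhibitor of Jak kinases, was at 8.27 ± 0.53 in proliferative and 5.16 ± 0.09 in reserve arrays. The phosphatase Ptpn11 was at 8.95 ± 0.46 in proliferative and 10.65 ± 0.91 in reserve arrays. Adjusted p was 0.624 for each of these 3. Jak2 itself ranged from 4.65 to 9.04 over the arrays, with the 42-day array lower in every zone. Socs2, the growth hormone-induced inhibitor of Ghr signalling, was singled out after its values were seen. It averaged 11.29 ± 0.61 in hypertrophic and 9.56 ± 0.84 in reserve arrays (adjusted p = 0.592).

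Of the IGF receptor signalling list 19 of 21 genes were measured and 0 were called. Pik3ca, the catalytic subunit of phosphoinositide 3-kinase, was at 11.97 ± 1.58 in proliferative and 14.13 ± 1.48 in reserve arrays (adjusted p = 0.568). Its perichondral mean was 14.18 ± 0.68. Sos1, an exchange factor for Ras, was at 7.86 ± 0.55 in hypertrophic and 10.03 ± 0.45 in proliferative arrays (adjusted p = 0.894). Tsc1, a brake on the growth kinase Mtor, was at 7.19 ± 1.91 in proliferative and 9.56 ± 0.25 in reserve arrays (adjusted p = 0.624). Grb14, an adaptor that inhibits insulin receptor signalling, was at 7.04 ± 0.29 in hypertrophic and 8.79 ± 0.51 in proliferative arrays (adjusted p = 0.903). The median difference of the list was -0.32 for hypertrophic minus reserve, beside -0.07 over all genes.

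The proteases that cut binding proteins and their inhibitors (6 of 8 genes measured) and the IGF2 mRNA-binding proteins (3 of 3) had 0 calls as well. Pappa2, which cuts Igfbp3 and Igfbp5, was at 7.34 ± 0.66 in proliferative and 9.08 ± 0.0042 in reserve arrays. The serine protease Htra1 was at 7.995 ± 0.19 in proliferative and 9.78 ± 1.62 in reserve arrays. Stromelysin Mmp3 was at 9.52 ± 1.03 in hypertrophic and 8.16 ± 0.64 in reserve arrays, and the lysosomal protease Ctsd at 9.19 ± 0.49 in hypertrophic and 7.91 ± 0.80 in proliferative arrays. The 4 pairs had adjusted p from 0.687 to 0.933. Igf2bp2, which binds the Igf2 transcript, was above the other-organ level in all 8 arrays, at 13.12 ± 0.39 in perichondral and 11.87 ± 0.90 in hypertrophic arrays (adjusted p = 0.826). Zone means of Igf2bp3 spanned 0.43.

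Genes whose values ran most like those of a member over the 8 arrays were sought among 8259 named probe sets above the median, with the probe set of the highest mean standing for each member. Pearson's r is a description here, over 8 arrays that share zones and scale. Igf1 ran closest to Uimc1 (r = 0.966) and Actr2 (0.928). Igf2 1388252_at ran closest to Rnf7 (0.977) and Tmod4 (0.963). Igf1r ran closest to Pgp (0.971) and Prickle2 (0.924). The nearest to Ghr were Ms4a20 (0.966) and Thumpd3 (0.964). For the binding proteins they were Osbpl7 (0.974) and Chac2 (0.968) for Igfbp2, Klf4 (0.957) and Med13 (0.955) for Igfbp3, and Trim37 (0.967) and Nt5dc1 (0.918) for Igfbp4. Igfbp5 was followed by Srxn1 (0.963) and Marchf8 (0.922), and Igfbp6 by Stk38 (0.945) and Sar1b (0.943). No gene was named for more than 1 member.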

How the data were processed

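Expression was measured on 8 one-colour arrays of rat femur growth plate zones, with RNA extracted with Qiagen RNeasy and amplified and labelled with Nugen Ovation, per the labels. The deposited values are linear intensities, 1 per probe set. MAS5, GCOS and RMA are named in the submitters' processing notes, with no role given for each. From the 31099 deposited probe sets 57 controls were left out. Intensities deposited by the authors were turned into log2(intensity + 16) and quantile normalized, and limma 3.58.1 in R 4.3.3 fitted 1 mean per zone (lmFit, eBayes with a variance trend). Zone pairs, any zone difference, and 46 minus 42 days with zone as a covariate were tested two-sided, with Benjamini-Hochberg adjustment over 31042 probe sets and a threshold of 0.05. The labels tie no 2 arrays to the same rats, so the spread behind a p-value holds differences between pools of both ages. In the zone fit most of that spread was borrowed from other probe sets. The trend over all probe sets carried 12.6 degrees of freedom, and a probe set's own arrays 4. An SE can therefore lie far from the SDs of the zones compared, and 2 arrays a zone limit what can be resolved. The table holds no detection calls or backgrounds.

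Platform annotation gave 20826 probe sets 1 symbol, 436 several and 9780 none, and 20758 symbols were matched by gene ID to a RefSeq gene table. The members and lists were chosen with earlier results of these data known. Named were every member, in each pathway list up to 4 genes with the widest span of zone means whose top zone mean was above the median, and the 2 genes with the highest Pearson's r to each member. Other genes of a list had the probe set with the highest mean standing for the gene. Alternatives were other pseudocounts and normalizations, a filter on dim probe sets, no variance trend, age as a replicate block, the arrays of 2 zones alone, and each array left out. The fits were tested on simulated data. Promoters came from RefSeq (GRCr8), read with Python 3.11.15 and pandas 2.3.3, and plots from matplotlib 3.10.9.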

Additional observations from a re-analysis of the deposited data

Results flagged for a closer look

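Within the 4 arrays of each age, which come from different zones, the lowest array stood apart from the others in 2 of the 44 groups tested, while chance flags about 1 in 20. For Igf1 1382599_at the 42-day perichondral array was lowest, at 8.54 on the log2 scale. The gap was small, with the next array at 8.83 and the highest at 8.89. For Igfbp3 1367652_at the 46-day proliferative array was lowest, at 4.90 on the log2 scale, with the next array at 7.70 and the highest at 8.08.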

How the results depend on the processing

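Over 2654 tests of members in all settings 0 passed, and the lowest adjusted p was 0.260. The 22 probe sets have 154 differences over the zone and age comparisons. With single arrays left out, 89 of the 154 changed sign in at least 1 fit, the largest of them being 1.56 in size. Under the 8 alternatives that left out no array 17 changed sign, none larger than 0.17. Only the other pseudocounts and normalizations could change a sign. The filter, the missing variance trend, the block and the arrays of 2 zones alone leave each difference as it was. Of 33 differences followed singly (the widest of each probe set, all of at least 2 in size or with an unadjusted p under 0.05, and the age differences of Igfbp2 and Ghr), 7 changed sign with an array left out. Perichondral minus reserve ran from -1.24 to 0.54 for Igfbp5 1370960_at and from -0.13 to 1.06 for Igfbp5 1397830_at. Perichondral minus proliferative ran from -0.48 to 2.90 for Igfbp3 1367652_at, and perichondral minus hypertrophic from -3.39 to 0.27 for Igfbp2 1367648_at. Hypertrophic minus reserve ran from -0.31 to 1.43 for Ghr 1368924_at, and hypertrophic minus proliferative from -1.17 to 1.59 for Igfbp6 1387625_at. The age difference ran from -1.30 to 0.83 for Ghr 1373803_a_at.

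Counts of called probe sets over the whole array depended on the setting, and the cause was not tested. Any zone difference was called for 12, and for 5 with arrays centred on their median, 4 with the filter on dim probe sets, 0 without a variance trend and 96 with age as a replicate block. Perichondral minus reserve gave 0, and 3 with the block and 9 with the arrays of the 2 zones alone. Perichondral minus proliferative gave 0, and 13 with the block. Perichondral minus hypertrophic gave 9, and 1 when centred, 2 with the filter, 0 without the trend and 55 with the block. Proliferative minus reserve gave 7, and 16 with a pseudocount of 64, 14 as deposited, 3 with the filter, 0 without the trend, 60 with the block and 27 with the 2 zones alone. Hypertrophic minus reserve gave 7, and 1 when centred, 2 with the filter, 0 without the trend, 38 with the block and 0 with the 2 zones alone. Hypertrophic minus proliferative gave 4, and 2 with a pseudocount of 1, 0 when centred, 0 with the filter, 0 without the trend, 11 with the block and 1 with the 2 zones alone. The age difference gave 0, and 5 with a pseudocount of 64, 45 as deposited and 140 when centred.

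With each array left out in turn the counts ran from 2 to 80 for any zone difference, 0 to 1 for perichondral minus reserve, 0 to 5 for perichondral minus proliferative, 0 to 50 for perichondral minus hypertrophic, 0 to 45 for proliferative minus reserve, 0 to 167 for hypertrophic minus reserve, 0 to 12 for hypertrophic minus proliferative and 0 to 5 for age. The age differences of the zones correlated at 0.0225 to 0.0806 over all probe sets, under the 0.1 set for taking a shared age as a pairing, so the block served as an alternative only. Most genes of 3 marker lists were lower at 46 days, as given above, though 0 passed after adjustment. Where a zone kept 1 array, it was assumed to vary like the other zones. Background correction and scan batches were not run, as the value table holds neither. The filter on dim probe sets left 10 of the 22 members.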
